A study of Mus musculus with 6 samples.

Results

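A set of 10 genes of the muscle surface and its repair were followed: the caveolins Cav1, Cav2 and Cav3, dysferlin (Dysf) and its relative myoferlin (Myof), the annexins Anxa1, Anxa2, Anxa5 and Anxa6, and calpain 3 (Capn3). They were taken by gene symbol, which gave 10 genes of 19057 on the array and 21 probes of 45281. The samples were tibialis anterior (TA) muscles of male C57Bl/6J mice aged 3 months by the labels. AAV8-Prox1 muscles (n = 3) had received an adeno-associated virus of serotype 8 that encodes the transcription factor Prox1, and AAV8-mCherry muscles (n = 3) the same kind of vector with the red fluorescent protein mCherry, which per the methods carried a nuclear localization signal and was injected into the contralateral muscle 4 weeks before. Per the methods the mice were 8 weeks old at injection. The promoter that drives either vector is not given in the sources used here. Total RNA of the whole muscle was measured on 1 Illumina Mouse WG-6 v2 BeadChip array per muscle, and values are log2 signals. The labels neither say which muscles belong to 1 mouse nor that muscles of a group came from separate mice, so p-values measure the spread between these samples. Since whole muscle was used, fewer cells of a type and less RNA per cell cannot be told apart.

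Caveolae are small flask-shaped pits of the plasma membrane whose coat is built from caveolins and cavins. Caveolin-3 is the caveolin of the muscle fibre, while caveolin-1 and caveolin-2 are abundant in endothelial cells and adipocytes. Dysferlin is a calcium-binding membrane protein that, with annexins and calpains, takes part in resealing a torn sarcolemma, and loss of dysferlin, caveolin-3 or calpain 3 is known to cause muscular dystrophy in humans.

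Cav3 and Dysf were lower and Anxa6 was higher in AAV8-Prox1 muscles than in AAV8-mCherry muscles. The changes were modest, 1.31-fold for Cav3, 1.30-fold for Dysf and 1.56-fold for Anxa6. The other 7 genes did not pass the test. A gene was read from its brightest probe and called at an adjusted p under 0.05 (limma, Benjamini-Hochberg over all probes). By this rule 3 of 10 genes were called, 1 higher and 2 lower, against 9.44% of all genes on the array (5.23% higher and 4.21% lower) and 24.3% of the 6734 genes with a mean log2 signal of 7 or more, the level taken as the limit above background. The 3 called genes were among the 7 of the set with a mean of 7 or more, and with so few genes the share is given as a description only. With the replicate number as a block, 1 of the 10 genes (Anxa6) was called. The median log2 fold change was 0.00 over the 10 genes and 0.00 over all genes.

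**Figure D1:**
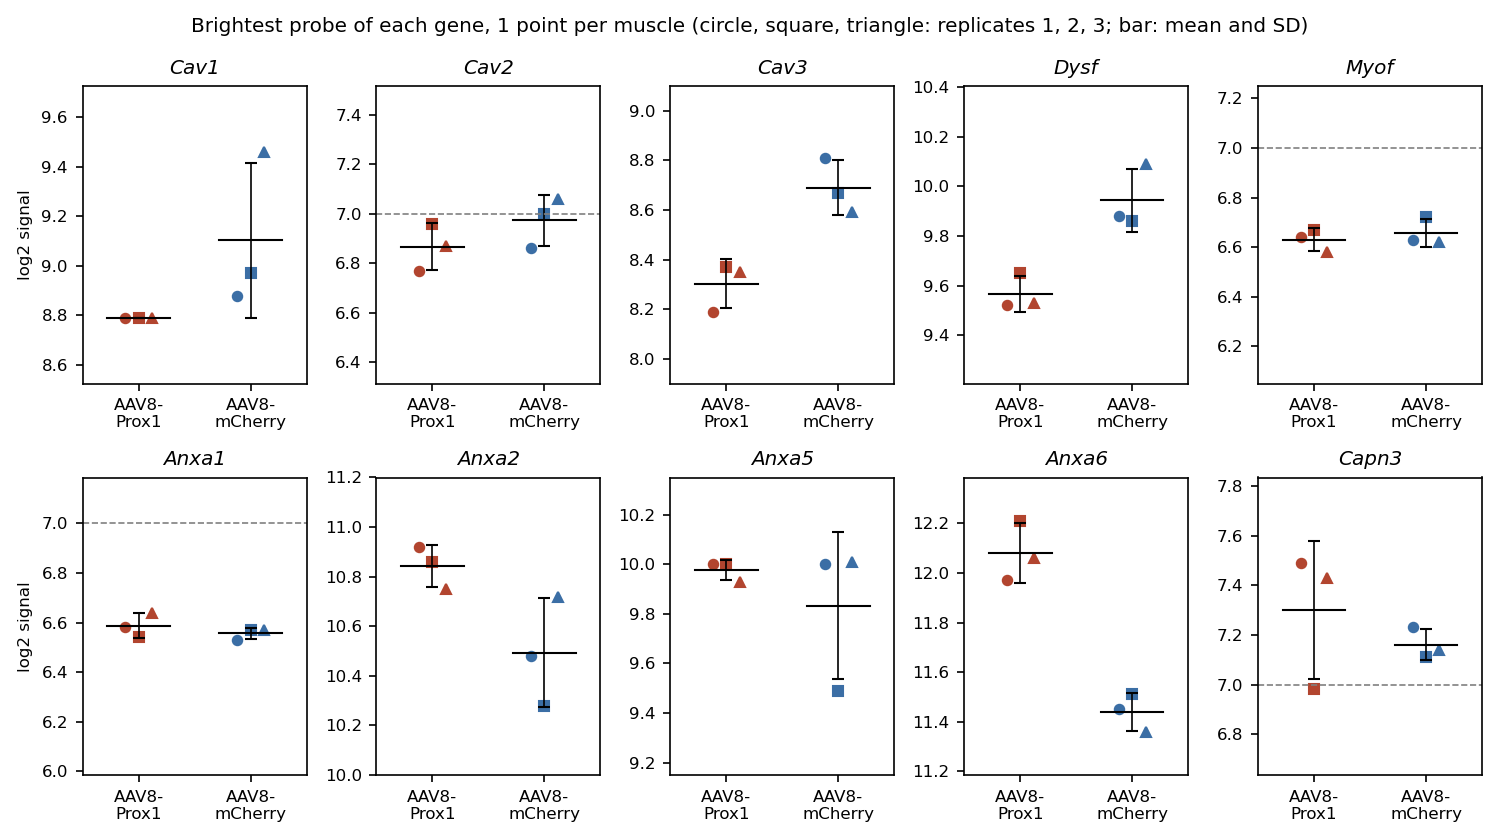
Log2 signal of the brightest probe of each of the 10 genes in AAV8-Prox1 muscles (red, left) and AAV8-mCherry muscles (blue, right), with 1 point per muscle and the mean and SD of 3 muscles. The dashed line marks a log2 signal of 7. Each panel spans the same number of log2 units. For Cav3, Dysf and Anxa6 the groups lie apart, and Myof and Anxa1 lie below the line in all 6 muscles.

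Each array had a median log2 signal of 6.61 and a range of 6.32 to 14.99, with 10667 to 10672 probes at 7 or more. The quantile normalization of the deposited values sets these alike, so they do not test whether the arrays were comparable. Arrays of 1 group correlated across probes at 0.990 to 0.994, and arrays of different groups at 0.967 to 0.974. Both probes for Prox1 itself stayed under 7 in every muscle. The brighter one read 6.59, 6.53 and 6.50 in AAV8-Prox1 muscles, against 6.55, 6.62 and 6.57 in AAV8-mCherry muscles. Whether these probes lie within the Prox1 sequence carried by the vector is not given in the sources used here, so they do not check the labels.

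Among the caveolins, Cav3 had a single probe (ILMN_2603299). Its log2 signal was 8.19, 8.37 and 8.35 in AAV8-Prox1 muscles, against 8.81, 8.67 and 8.59 in AAV8-mCherry muscles. Every AAV8-Prox1 muscle lay below every AAV8-mCherry muscle. The log2 fold change was -0.39 with a standard error of 0.07 and a 95% interval of -0.55 to -0.22 (limma adjusted p = 0.0181). Leaving out any 1 muscle kept the call, with log2 fold changes of -0.44 to -0.33 and limma adjusted p values of 0.0252 to 0.0499. A block on the replicate number lost it (limma adjusted p = 0.0853).

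Cav1, which forms caveolae in endothelium, read 8.79 in each of the 3 AAV8-Prox1 muscles, against 8.88, 8.97 and 9.46 in AAV8-mCherry muscles. The groups did not overlap, but replicate 3 of the AAV8-mCherry muscles lay well above the others. The log2 fold change of -0.31 (95% interval -0.63 to 0.00, limma adjusted p = 0.32) did not pass. Without that AAV8-mCherry muscle the log2 fold change was -0.14. The same muscle also had the highest mean level of endothelial markers, 8.95 against 8.70 in each of the other AAV8-mCherry muscles. In the 3 AAV8-Prox1 muscles, equal for Cav1, the endothelial means were 8.36, 8.48 and 8.54. A link between Cav1 and these means was not tested.

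Cav2, whose product assembles with caveolin-1, was near the background limit. Its brighter probe gave 6.77, 6.96 and 6.87 in AAV8-Prox1 muscles and 6.86, 7.0 and 7.06 in AAV8-mCherry muscles. These ranges overlapped, and the log2 fold change was -0.11 (95% interval -0.26 to 0.05, limma adjusted p = 0.554). Its second probe stayed under 7 in all 6 muscles. Cav1 and Cav2 are neighbouring protein-coding genes on mouse chromosome 6, which also carries Cav3 and Dysf.

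Dysf was covered by 5 probes. The brightest (ILMN_2420956) read 9.52, 9.65 and 9.53 in AAV8-Prox1 muscles, against 9.88, 9.86 and 10.09 in AAV8-mCherry muscles. The groups lay apart, and the log2 fold change was -0.38 with a standard error of 0.07 and a 95% interval of -0.54 to -0.22 (limma adjusted p = 0.0193). The call was lost without AAV8-Prox1 replicate 1 (log2 fold change -0.35, limma adjusted p = 0.07) and without AAV8-Prox1 replicate 3 (log2 fold change -0.36, limma adjusted p = 0.0668). It was kept without each of the other 4 muscles, and lost with a block on the replicate number (limma adjusted p = 0.0665).

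The next brightest Dysf probe (ILMN_3134844) gave 7.32, 7.45 and 7.49 in AAV8-Prox1 muscles, against 7.79, 7.69 and 7.96 in AAV8-mCherry muscles. It also separated the groups, with a log2 fold change of -0.39 (limma adjusted p = 0.023). The third (ILMN_2674315) read 6.82, 6.91 and 6.90 in AAV8-Prox1 muscles, against 7.04, 7.08 and 6.97 in AAV8-mCherry muscles. Here too the groups did not overlap, at a log2 fold change of -0.15 that did not pass (limma adjusted p = 0.104) and with every AAV8-Prox1 muscle under the background limit. The last 2 Dysf probes stayed under 7 throughout, at log2 fold changes of 0.04 and -0.05. All Dysf probes but 1 of these dim ones were mapped to a RefSeq transcript, and that 1 was designed on a cDNA clone.

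Myof, the ferlin of myoblasts and regenerating muscle, was under 7 in all 6 muscles on both of its probes. Its log2 fold changes of -0.03 and 0.03 (limma adjusted p = 0.877 each) lie at background, where a change could not be measured.

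The promoters of Cav3 and Dysf are shown because these are the genes that fell. RefSeq gives, for build GRCm38.p6, 1 start for Cav3 and 2 for Dysf, and each window holds 250 bases before the start and 50 after it, 5′ to 3′ on the plus strand. Capitals mark matches to the E-box letters CANNTG, the core read by MyoD-family factors, which are the same on both strands.
Cav3, chr6:112459255-112459554: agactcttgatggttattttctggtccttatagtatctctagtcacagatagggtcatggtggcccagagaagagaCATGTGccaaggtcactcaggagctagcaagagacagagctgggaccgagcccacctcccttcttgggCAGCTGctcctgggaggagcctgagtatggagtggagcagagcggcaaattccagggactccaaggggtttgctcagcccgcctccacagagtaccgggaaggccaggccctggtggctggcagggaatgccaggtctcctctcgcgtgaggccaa
Dysf, chr6:84008348-84008647: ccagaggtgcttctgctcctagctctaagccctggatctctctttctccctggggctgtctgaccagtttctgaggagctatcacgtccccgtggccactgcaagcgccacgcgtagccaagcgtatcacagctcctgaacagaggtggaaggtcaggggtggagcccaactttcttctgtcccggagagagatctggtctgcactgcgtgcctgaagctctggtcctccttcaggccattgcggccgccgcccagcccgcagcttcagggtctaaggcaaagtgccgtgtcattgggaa
Dysf, chr6:84019136-84019435: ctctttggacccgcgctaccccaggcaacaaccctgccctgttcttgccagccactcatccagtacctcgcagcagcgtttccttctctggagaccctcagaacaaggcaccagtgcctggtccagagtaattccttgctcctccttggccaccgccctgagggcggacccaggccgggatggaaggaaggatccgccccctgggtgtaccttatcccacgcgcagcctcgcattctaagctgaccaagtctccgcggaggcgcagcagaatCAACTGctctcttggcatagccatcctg
The Cav3 window held 2 E-boxes, CATGTG at -174 and CAGCTG at -106 from the start. The first Dysf window held none and the second held 1, CAACTG at +23. Of 32544 promoter windows of the same length in the mouse table, 72.3% held at least 1 E-box. The NFAT core GGAAA, searched on both strands, was found once in the second Dysf window and in neither of the others, against 61.5% of all windows. The MEF2 motif and the CArG box, carried by 3.16% and 1.64% of all windows, had no match in any of the 3 windows. A match is a run of letters and not a site shown to be bound. For 9 of the 10 genes the promoter table had an entry, Anxa6 being the exception.

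Anxa6, an annexin with a doubled core that gathers at membrane wounds in muscle, showed the largest change of the 10 genes. Its brightest probe (ILMN_2878060) read 11.97, 12.21 and 12.06 in AAV8-Prox1 muscles, against 11.45, 11.51 and 11.36 in AAV8-mCherry muscles. The lowest AAV8-Prox1 muscle lay well above the highest AAV8-mCherry muscle. The log2 fold change was 0.64 with a standard error of 0.07, or 1.56-fold with a 95% interval of 1.40 to 1.74 (limma adjusted p = 0.00194). It passed whichever muscle was left out, at log2 fold changes of 0.57 to 0.70.

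The call for Anxa6 rests on that probe, which was mapped to a RefSeq transcript. A second Anxa6 probe, designed on a cDNA clone, gave 7.45, 7.37 and 7.44 in AAV8-Prox1 muscles and 7.46, 7.28 and 7.26 in AAV8-mCherry muscles. Its groups overlapped, at a log2 fold change of 0.09 (95% interval -0.05 to 0.22, limma adjusted p = 0.599). The third, also from a cDNA clone, stayed under 7 in all muscles.

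Anxa2, which binds membranes and actin as a complex with S100a10, read 10.92, 10.86 and 10.75 in AAV8-Prox1 muscles, against 10.48, 10.28 and 10.72 in AAV8-mCherry muscles. The groups did not overlap, by the narrow gap between AAV8-Prox1 replicate 3 and AAV8-mCherry replicate 3. The log2 fold change of 0.35 (95% interval 0.11 to 0.59, limma adjusted p = 0.12) did not pass over all probes. It passed without AAV8-mCherry replicate 3 (0.46, limma adjusted p = 0.026) and when dim probes were left out of the adjustment (limma adjusted p = 0.0373). The second Anxa2 probe, from a cDNA clone, had a log2 fold change of -0.08 (limma adjusted p = 0.622).

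Anxa5, the annexin used as a probe for exposed phosphatidylserine, read 10, 10 and 9.93 in AAV8-Prox1 muscles, against 10, 9.49 and 10.01 in AAV8-mCherry muscles. Apart from AAV8-mCherry replicate 2 the muscles had almost the same signal. The log2 fold change was 0.14 with a 95% interval of -0.16 to 0.45 (limma adjusted p = 0.731). Its sign turned without AAV8-mCherry replicate 2 (-0.03), and the other omissions gave 0.13 to 0.23. Anxa1, best known from leukocytes and epithelia, was under 7 in all 6 muscles on its only probe, at a log2 fold change of 0.03 (limma adjusted p = 0.831).

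Capn3, the muscle calpain that binds titin, had 3 probes near the background limit. The brightest (ILMN_2867771) read 7.49, 6.98 and 7.43 in AAV8-Prox1 muscles, against 7.23, 7.11 and 7.14 in AAV8-mCherry muscles. AAV8-Prox1 replicate 2 was the lowest of the 6 muscles and the other AAV8-Prox1 muscles the highest. The log2 fold change was 0.14 (95% interval -0.15 to 0.43, limma adjusted p = 0.723), and 1 muscle decided its size. It was 0.30 without AAV8-Prox1 replicate 2 (limma adjusted p = 0.0294), 0.04 without AAV8-Prox1 replicate 1 (limma adjusted p = 0.951) and 0.08 without AAV8-Prox1 replicate 3 (limma adjusted p = 0.911). The other 2 probes gave 0.12 each (limma adjusted p = 0.404 and 0.56), so none of the 3 passed over all muscles.

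Over the 21 probes, 1 was called higher and 3 lower, against 6.02% of all probes called in either direction and 2.86% called lower. The 4 called probes were among the 9 with a log2 signal of 7 or more in all 6 muscles. Of the other probes, 5 reached 7 in some muscles and 7 in none. On brightest probes, the groups did not overlap for 5 of the 10 genes (Cav1, Cav3, Dysf, Anxa2 and Anxa6), against 23.3% of all genes and 43.1% of genes with a mean of 7 or more.

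**Figure D2:**
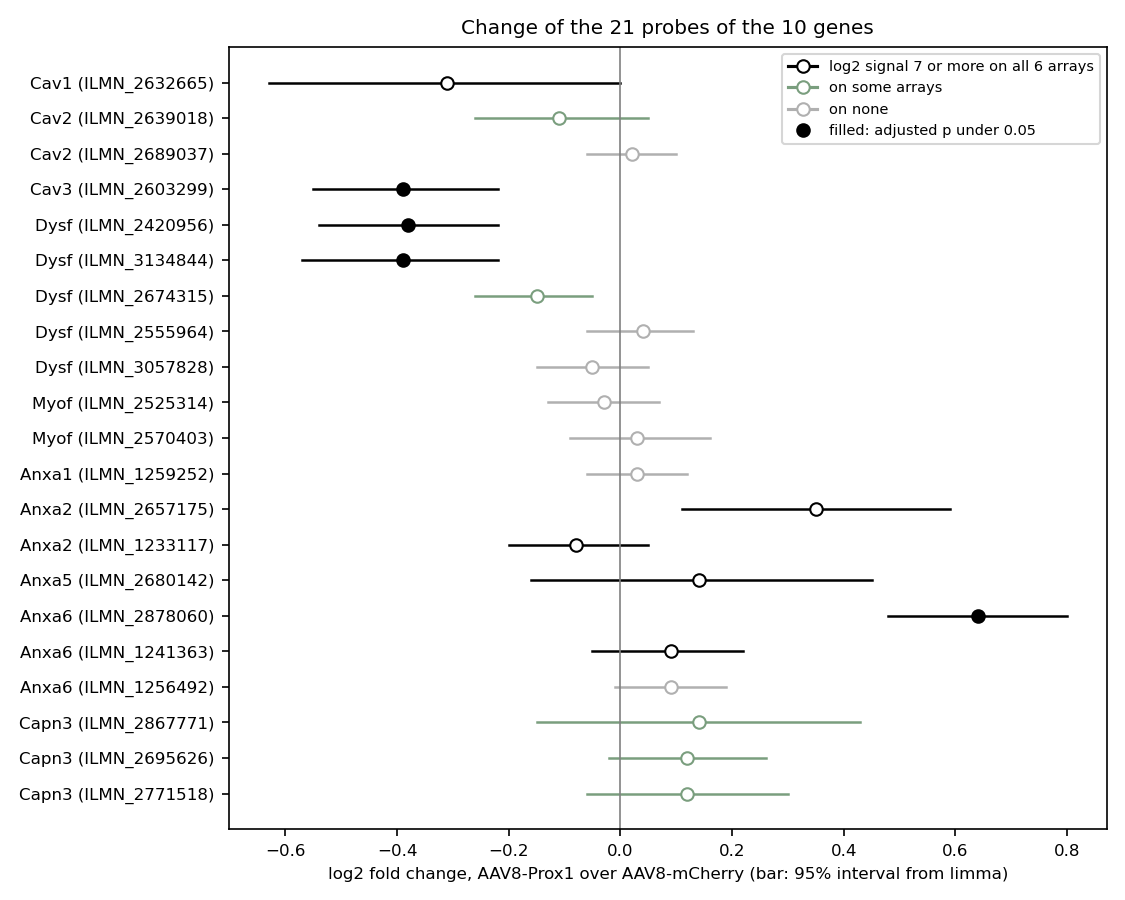
Log2 fold change (AAV8-Prox1 over AAV8-mCherry) and its 95% interval from limma for the 21 probes of the 10 genes, 3 muscles per group. Filled points passed an adjusted p under 0.05, and colours give whether a probe reached a log2 signal of 7 in all 6, some or none of the muscles. The filled points are Cav3, 2 probes of Dysf and 1 probe of Anxa6.

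Whether related genes changed unequally was tested on the within-array difference between their brightest probes, in 6 pairs. Only the change of that difference between groups is read, since levels of different probes are not comparable. With 3 muscles against 3 the exact two-sided permutation test cannot go below 0.1, and none of the pairs could therefore pass 0.05. Cav3 minus Cav1 differed between the groups by -0.07 (exact permutation p = 0.8), well within the spread between muscles. Cav3 minus Cav2 differed by -0.28 (-0.37 to -0.16 with 1 muscle left out) and Dysf minus Myof by -0.35 (exact permutation p = 0.1 each, 0.2 after Benjamini-Hochberg adjustment over the 6 pairs). Since Cav2 was at or near background and Myof was at background, these values carry little beyond the changes of Cav3 and Dysf themselves and do not test unequal change.

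Against Anxa5 the difference of Anxa6 changed by 0.50 (0.37 to 0.70 with 1 muscle left out) and against Anxa2 by 0.29 (0.14 to 0.43), and in both the groups overlapped (exact permutation p = 0.2 each, adjusted 0.24). The value of 0.61 against Anxa1 (exact permutation p = 0.1, adjusted 0.2) is set against a probe at background and restates the change of Anxa6 alone. With this number of muscles, whether Anxa6 changed more than Anxa2 or Anxa5 was not settled by the test.

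The partner genes of the caveola were read from a list of 11 coat and shaping genes, all measured. Of these 2 were higher, none was lower and 9 did not pass. The share called was 18.2%, against 9.44% of all genes, and the median log2 fold change was -0.18. Of the 11 genes, 9 had a mean of 7 or more and 2 of these were called, beside 24.3% of all genes at that level. Ehd4, a membrane-shaping ATPase of the EHD family, read 12.14, 12.22 and 11.83 in AAV8-Prox1 muscles, against 11, 11.28 and 11.24 in AAV8-mCherry muscles. It lay apart between the groups, 1.85-fold higher (log2 fold change 0.89, limma adjusted p = 0.00393). Its second probe stayed under 7. The other EHD genes of the list lay apart in the opposite direction on their brightest probes and did not pass. Ehd1 had a log2 fold change of -0.25 (limma adjusted p = 0.126). Ehd2, near the background limit, had -0.19 (limma adjusted p = 0.158). Bin1, the amphiphysin that curves T-tubule membrane, read 13.03, 13.01 and 13.01 in AAV8-Prox1 muscles, against 12.65, 12.83 and 12.81 in AAV8-mCherry muscles. The 1.19-fold difference (limma adjusted p = 0.03) was lost in 4 of the 6 fits that left out 1 muscle, and a second Bin1 probe above 7 in all muscles had a log2 fold change of -0.06 (limma adjusted p = 0.813). A dimmer probe of Pacsin3, a membrane-bending F-BAR protein, was called lower at -0.46 (limma adjusted p = 0.0219), while its brightest probe, at -0.18, did not pass (limma adjusted p = 0.472).

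The cavins, the peripheral coat proteins that stabilise caveolae, are given here although none was called, and were chosen after their values were seen. Cavin4, the cavin of muscle, read 9.47, 9.31 and 9.22 in AAV8-Prox1 muscles, against 9.47, 9.64 and 9.90 in AAV8-mCherry muscles. Its log2 fold change was -0.34 (95% interval -0.59 to -0.08, limma adjusted p = 0.161), with the 2 groups meeting at replicate 1 of each. Cavin3 lay apart at 8.61, 8.60 and 8.65 in AAV8-Prox1 muscles, against 8.87, 8.72 and 8.86 in AAV8-mCherry muscles, and missed the threshold (log2 fold change -0.20, limma adjusted p = 0.0593). Cavin2 (-0.28) and Cavin1 (-0.05) overlapped between the groups, with limma adjusted p values of 0.545 and 0.952. The second Cavin1 probe lay apart at -0.24 and did not pass (limma adjusted p = 0.178).

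Of a list of 30 other membrane repair genes, 27 were measured, of which 3 were higher, none was lower and 24 did not pass. The share called was 11.1%, near the 9.44% of all genes, and the median log2 fold change was 0.06. Of the 27 genes, 18 had a mean of 7 or more and 2 of these were called, beside 24.3% of all genes at that level. Ahnak, a giant scaffold protein that binds dysferlin and the annexin A2 complex, read 12.37, 12.38 and 12.40 in AAV8-Prox1 muscles, against 12.05, 11.86 and 11.96 in AAV8-mCherry muscles. It was 1.34-fold higher (log2 fold change 0.43, limma adjusted p = 0.00311). Capn2, a calpain activated by calcium at membrane wounds, read 8.01, 8.08 and 8.16 in AAV8-Prox1 muscles, against 7.48, 7.58 and 7.77 in AAV8-mCherry muscles. It was 1.39-fold higher (log2 fold change 0.47, limma adjusted p = 0.0114), and its second probe gave the same log2 fold change (limma adjusted p = 0.00659). The third, Cast, which encodes the calpain inhibitor calpastatin, reached 7 in 1 muscle only and is given no fold (limma adjusted p = 0.00848). Vamp3, a vesicle fusion protein, had a dimmer probe called lower at -0.32 (limma adjusted p = 0.0161) and a brightest probe at 0.07 that did not pass (limma adjusted p = 0.764).

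Trim72, the sealing protein also called MG53 and chosen after its values were seen, did not pass. It read 11.49, 11.59 and 11.49 in AAV8-Prox1 muscles and 11.58, 11.84 and 11.68 in AAV8-mCherry muscles. The groups overlapped at a log2 fold change of -0.18 (95% interval -0.33 to -0.02, limma adjusted p = 0.246).

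In the dystrophin-glycoprotein complex, the other main complex of the sarcolemma, 14 of 16 listed genes were measured. None was higher, 1 was lower and 13 did not pass (7.14% called, under the 9.44% of all genes, and a median log2 fold change of 0.01). Of the 14 genes, 7 had a mean of 7 or more and 1 of these was called, beside 24.3% of all genes at that level. The brightest probes of the other 7, Dmd among them, were under 7 in all 6 muscles. The share and the median therefore say little about these 7 genes. The gene that fell was Nos1, the neuronal nitric oxide synthase bound to the complex, with 9.02, 9.19 and 9.03 in AAV8-Prox1 muscles, against 9.65, 9.86 and 9.53 in AAV8-mCherry muscles. It was 1.52-fold lower (log2 fold change -0.60, limma adjusted p = 0.00711) on a probe designed on a cDNA clone. Its second probe, near the background limit, was called at -0.18 (limma adjusted p = 0.0436).

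**Figure D3:**
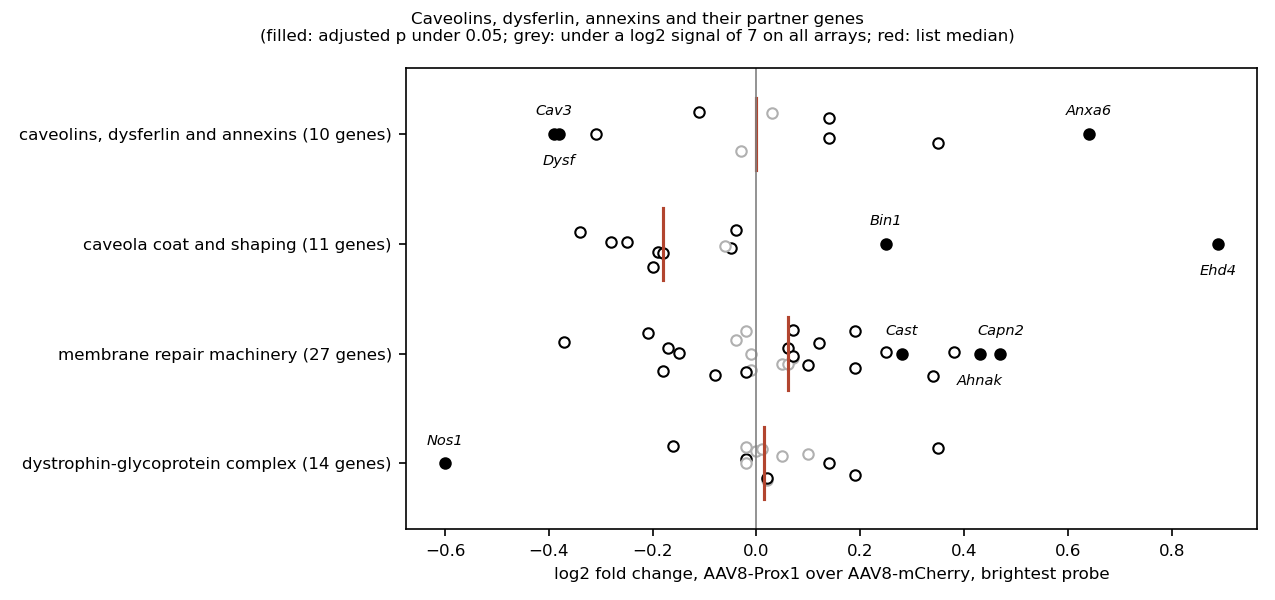
Log2 fold change (AAV8-Prox1 over AAV8-mCherry) of the brightest probe of each gene in the set of 10 and in 3 lists of partner genes. Filled points passed an adjusted p under 0.05 and are named, grey points were under a log2 signal of 7 in all muscles, and red bars are list medians. On these brightest probes, the called partner genes were Ehd4 and Bin1 (higher), Ahnak, Capn2 and Cast (higher) and Nos1 (lower).

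Mean levels of several marker lists differed between the groups, and their part in the values above was not tested. Shares called below stand beside 9.44% of all genes and 24.3% of genes with a mean of 7 or more. With so few genes per list they are given as a description only. Of 8 skeletal fibre markers, 4 fell (Mylpf, Tnni2, Tnnt3 and Myh4) and 4 did not pass. Their mean log2 signal was 13.52 to 13.72 in AAV8-Prox1 muscles and 14.04 to 14.06 in AAV8-mCherry muscles. The paper names Tnni2, Tnnt3 and Myh4 as genes of fast fibres, and the list holds no slow-fibre gene. Log2 fold changes of the 4 that did not pass were 0.07 (Acta1), -0.04 (Ckm), -0.05 (Pvalb) and 0.00 (Atp2a1). Whether fibre RNA as a whole differed was not tested. The brightest probes of Acta1, Ckm, Mylpf, Pvalb and Atp2a1 lay at the top of the array's range, where folds are not read as exact. Mylpf gave -0.52 on that probe and -1.07 on its dimmer one (limma adjusted p = 0.000255). Cav3, Dysf, Capn3 and Cavin4 are known as genes of the fibre.

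Endothelial cells are rich in Cav1 and Cav2. Of 10 endothelial markers, 3 fell (Tie1, Flt1 and Eng), none rose and 7 did not pass. Their mean log2 signal was 8.36 to 8.54 in AAV8-Prox1 muscles and 8.70 to 8.95 in AAV8-mCherry muscles, without overlap. Esam, the brightest of them, had a log2 fold change of -0.45 that narrowly missed the threshold (limma adjusted p = 0.0524).

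Macrophages and fibroblasts express several annexins. Of 9 measured macrophage markers, 4 rose (C1qc, Cd14, Mrc1 and Lgals3) and none fell (44.4% called), Cd14 being under 7 in all 6 muscles. Their mean log2 signal was 7.51 to 7.64 in AAV8-Prox1 muscles and 7.05 to 7.25 in AAV8-mCherry muscles. The largest change was that of Lgals3, 8.96, 8.75 and 8.99 in AAV8-Prox1 muscles against 7.61, 7.24 and 7.53 in AAV8-mCherry muscles. Of 8 fibroblast markers, 1 rose (Lum), none fell and 7 did not pass (12.5% called). List means were 8.0 to 8.05 in AAV8-Prox1 muscles and 7.58 to 7.89 in AAV8-mCherry muscles. AAV8-mCherry replicate 2, the lowest muscle for both lists, was also the lowest for Anxa2 and Anxa5 and the highest AAV8-mCherry muscle for Anxa6.

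Of 7 measured markers of satellite cells and regenerating fibres, 2 fell (Myod1 and Myl4) and none rose (28.6% called). The mean was 7.41 to 7.47 in AAV8-Prox1 muscles and 7.59 to 7.74 in AAV8-mCherry muscles. Pax7, Myf5 and Mymk were under 7 in all 6 muscles, and Myog and Myh8 did not pass. The lower mean is therefore not read as fewer satellite cells. None of the 4 smooth muscle markers passed on its brightest probe, at means of 8.31 to 8.44 in AAV8-Prox1 muscles and 8.51 to 8.52 in AAV8-mCherry muscles. A dimmer Acta2 probe, above 7 in all muscles, was called lower at -0.51 (limma adjusted p = 0.00368). The brightest Acta2 probe gave -0.26 (limma adjusted p = 0.165), and its other probes did not pass either. Tagln and Cnn1 were under 7 in every muscle. All 4 measured adipocyte markers were under 7 in every muscle.

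**Figure D4:**
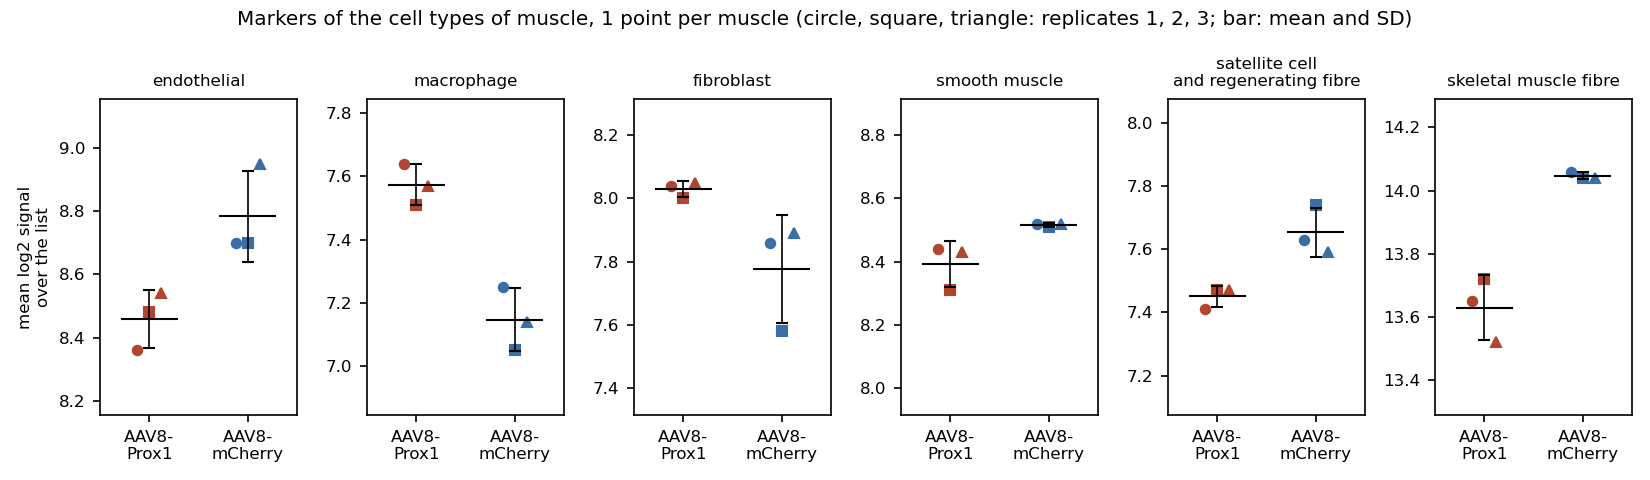
Mean log2 signal over the measured markers of 6 cell types in AAV8-Prox1 muscles (red, left) and AAV8-mCherry muscles (blue, right), with 1 point per muscle and the mean and SD of 3 muscles. Each panel spans the same number of log2 units. Macrophage and fibroblast means are higher in AAV8-Prox1 muscles and the other 4 are lower, without overlap in any panel. The skeletal fibre list holds no slow-fibre gene. In the satellite cell list, Pax7, Myf5 and Mymk were under a log2 signal of 7 in all muscles.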

How the data were processed

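RNA of 6 TA muscles was hybridised to Illumina Mouse WG-6 v2 BeadChips. The log2 values used here are the signals the authors deposited after GenomeStudio quality control and quantile normalization in Chipster, given to 2 decimals. The sources used here name no background correction. Raw signals were left aside, since none of the 12 per-sample columns of their table could be tied to a label, and a log2 signal of 7 stood in for the detection p. The arrays give no read depth, and their number limits the precision.

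Groups were compared over all 45281 probes by lmFit and eBayes of limma 3.58.1 (R 4.3.3), without a block. P-values were adjusted after Benjamini-Hochberg over the whole array, and the threshold was 0.05. A gene is its probe with the highest mean signal. Of the probes, 34885 carry 1 gene symbol, 18 several and 10378 none, and the last kinds count only in the adjustment. Differences within arrays were compared with exact permutation tests (scipy 1.17.1). The limma step was tested on simulated data. Promoters are from RefSeq (GRCm38.p6).

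The genes, lists and tests were chosen with earlier results of these data known. Named genes are the 10 genes with all probes, Prox1, from each partner list up to 6 called genes with a group mean above 7, and from each cell type list genes among the 3 brightest. Other marker genes named to complete a count or give a limit, Dmd, Ehd1, Ehd2, the cavins, Pacsin3, Trim72, Cast and Vamp3 were named after their values were seen. A further 8 listed symbols had no probe with that symbol. Alternatives were another probe rule, a filter on dim probes, median centring, a replicate block, eBayes with trend, a minimum change and leaving out each muscle.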

Additional observations from a re-analysis of the deposited data

How the results depend on the processing

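Called changes of the 10 genes kept their direction in all alternatives run. Per the methods the control was the contralateral muscle, but the labels do not give the pairs, so equal numbers were not taken for pairs. Deviations of same-numbered arrays from their group means correlated at -0.18, 0.05 and -0.12, against -0.11 to 0.23 for unequal numbers. With 3 arrays per group these values cannot exclude pairing. With the replicate number as a block, 1 of the 10 genes (Anxa6) and 2 of the 21 probes were called, Cav3 and Dysf had limma adjusted p values of 0.0853 and 0.0665 at the same log2 fold changes, Bin1 and Cast had 0.0809 and 0.0519, the caveola list had 1 call, and 1933 probes of the whole array were called against 2725. Only Anxa6, by 1 gene and 1 probe, passed with a minimum absolute log2 fold change of 0.5, which left 1 call in the caveola list and 0 in the repair list. The mean over all probes of a gene gave a log2 fold change of 0.27 for Anxa6, -0.19 for Dysf, 0.14 for Anxa2, 0.17 for Ahnak, 0.49 for Ehd4, 0.26 for Capn2 and -0.39 for Nos1, and the mean over the bright ones 0.36 for Anxa6, -0.38 for Dysf, 0.14 for Anxa2 and 0.28 for Ahnak. The calls of Anxa6, Dysf, Ahnak, Ehd4, Capn2 and Nos1 held under both. Either mean left 1 call in the caveola list, and the bright-probe mean lowered the change of Anxa6 minus Anxa5 to 0.22. The eBayes fit with trend and robust estimation gave 1 call in the caveola list and 5 in the repair list (4 higher, 1 lower). The dim-probe filter and the choice of the probe with the smallest p each gave 2 calls in the dystrophin-glycoprotein list. Leaving out 1 muscle gave 2 to 4 called genes and 2 to 5 called probes among the 10 genes, 1 to 3 calls in the caveola list, 3 to 4 in the repair list and 1 to 2 in the dystrophin-glycoprotein list. The change of Cav3 minus Cav1 reversed without AAV8-mCherry replicate 1 (0.10), in a range of -0.30 to 0.10. Median centring moved no value and could not, since the quantile-normalized arrays already shared their median, so it is no check. Normalization from raw signals was not run because the raw columns could not be assigned. Signals under 7, as for Myof, Anxa1 and most of Cav2, limit what these arrays can show.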
